A study of Mus musculus with 18 samples.

Results

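The genes described here encode the constitutive proteasome, its regulatory particle and its activators. They were chosen by name: every mouse gene whose symbol is Psma, Psmb, Psmc, Psmd or Psme followed by a number, leaving out the immunoproteasome subunits Psmb8, Psmb9 and Psmb10 and the pseudogenes. This gave 42 genes of the 55401 lines of the endothelial table, which names genes by Ensembl identifier, and the same 42 genes of the 22612 lines of the EO771 table, which names them by symbol. Of these, 38 encode proteins that the role lists place in the 20S core, the 19S particle or the activators, and 3 others (Psmd5, Psmd9 and Psmd10) encode chaperones of 19S assembly. Psmc3ip was picked up by its symbol alone and encodes a partner of meiotic recombinases, so it was kept in every count and is named where it was called.

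The study sequenced RNA of 6 groups with 3 libraries each. The 12 endothelial libraries were made from cells sorted from wild-type C57BL/6 female mice of 5 to 6 weeks: endothelial cells of blood vessels (BECs, CD45-CD31high PNAd-), taken either from the fat pad of tumour-free mice (BEC normal) or from a primary EO771 tumour (BEC tumour), and endothelial cells of high endothelial venules (HECs, CD45-CD31high PNAd+), taken from the inguinal lymph nodes (LNs) of tumour-free mice (HEC normal) or from LNs of tumour-bearing mice, which the labels call metastases (HEC tumour). Lymphocytes enter LNs through these venules. The other 6 were made from EO771, a line of mouse breast cancer cells, kept for 48 h with 12-HETE at 100 nM, a lipid that the lipoxygenase ALOX12 makes from arachidonic acid, or with its vehicle, saline holding 2% DMSO. No group carried an engineered allele. HECs and BECs came from different tissues, each tissue with its own digestion. Cell type and tissue therefore cannot be told apart in any comparison of HECs with BECs. BEC normal and BEC tumour also came from different tissues, fat pad and tumour, digested with different enzymes. Tumour and tissue thus cannot be told apart in BECs, nor where the tumour change of BECs is set against that of HECs. The study's legends give n = 3 independent experiments for the RNA sequencing of both the endothelial and the EO771 cells. The sources used here do not say whether animals were pooled within a library, so the p-values measure the spread between these libraries only.

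The proteasome degrades proteins that carry chains of ubiquitin. Its barrel-shaped 20S core is built of stacked rings, in which alpha subunits gate the entrance and the beta subunits Psmb5, Psmb6 and Psmb7 carry the catalytic sites. At the ends of the barrel sits the 19S particle, whose ATPases (Psmc genes) unfold the substrate and whose other subunits (most Psmd genes) bind ubiquitin and remove it. The PA28 activator made by Psme1 and Psme2 can take the place of the 19S particle and favours the release of peptides for MHC class I. Interferon-gamma induces Psme1 and Psme2 together with Psmb8, Psmb9 and Psmb10, which replace the catalytic subunits in the immunoproteasome. Psme3 encodes a nuclear activator of the same family and Psme4 the large activator PA200. When proteasome activity falls short, the transcription factor NRF1 (Nfe2l1) raises most subunit genes together.

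The values of a library summed to 56.4 to 79.4 M in endothelial cells and to 17.3 to 18.6 M in EO771 cells. Of the 42 genes, 40 had a mean of at least 10 and were tested in each table. The other 2 were Psma8, a testis form of an alpha subunit, which was at 0 in all BEC normal, HEC normal and EO771 libraries and reached at most 9 in any library, and Psmb11, the thymus form of a catalytic subunit, which reached at most 8. All 6 endothelial markers were detected in the endothelial groups. The summed high endothelial markers lay between 970.2 and 3049 CPM (counts scaled to a common library total) in HECs and at or below 0.996 CPM in BECs, with Ccl21a at 0 in all HEC libraries. Single markers set 2 HEC libraries apart: Chst4 had normalised counts of 19906, 4.07 and 20205 in HEC normal, where replicate 2 was near 0, and Fut7 of 66477, 65523 and 14255 in HEC tumour, where replicate 3 was low. Glycam1 was between 39129 and 40336 in HEC normal and between 69695 and 71579 in HEC tumour, with those libraries lowest in their groups by a small margin. Without HEC normal replicate 2, 9 members were higher and 22 lower than in BEC normal, and the comparison of HECs with and without tumour had 2 higher and 16 lower members. Without HEC tumour replicate 3, 9 were higher and 20 lower than in BEC tumour, and for tumour in HECs the counts were 3 higher and 16 lower. The leukocyte markers, mostly Lyz2, summed to 612.5 to 1017 CPM in BEC tumour and to at most 11.8 CPM in the other endothelial libraries. Their part in the results for BEC tumour was not tested. In such bulk libraries, fewer cells of a type and less RNA per cell cannot be told apart.

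On a scale per length (TPM, from the main transcript of each gene), the 14 expressed 20S subunits had a median level between 297.8 TPM in HEC tumour and 365.7 TPM in BEC normal, taking the mean of 3 libraries for each gene. Their levels within a group spanned between 5.06-fold, in EO771 cells given 12-HETE, and 7.41-fold, in HEC normal, although the assembled core holds its subunits in equal numbers. At the low end stood Psma2 or Psma3 in every group. Among the 14 expressed core subunits these 2 have the longest main transcripts (2911 and 2846 bases), so that their place rests on those lengths. The catalytic subunit Psmb6 stood at 529 ± 39.9 TPM in BEC normal and 401 ± 19.5 TPM in HEC normal (mean ± SD, n = 3), and Psmb5 at 245 ± 25.2 and 385 ± 3.93 TPM. In BEC normal the levels of Psmb5 lay below those of Psmb6 in all libraries, and in HEC normal the 2 genes lay within their spread of each other. The large activator gene Psme4 was the lowest activator, with levels between 20.6 ± 4.3 TPM in BEC normal and 40.6 ± 1.43 TPM in EO771 cells given 12-HETE. The level of Psme1 relative to the mean of the 20S subunits of the same library was 0.378 ± 0.034 for normal BECs and 0.503 ± 0.025 for those of tumours, against 1.07 ± 0.055 for normal HECs and 0.893 ± 0.011 for HEC tumour. Thus Psme1 RNA was about as abundant per length as that of an average core subunit in HECs, and below it in all BEC libraries.

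The first comparison asked how HECs of normal LNs differed from BECs of the normal fat pad. Most subunit genes were lower in HECs, while the PA28 genes and the catalytic subunit Psmb5 were among the genes that were higher. Of the 40 genes tested with DESeq2 at an adjusted p under 0.05, 23 were lower in HECs, against a background of 31.9% of all 18511 genes tested, and 9 were higher, against 31.4%. The median log2 fold change over the 40 genes was -0.22, where that of all genes was 0.0046. By role, 5 of 7 alpha subunits, 5 of 7 beta subunits, 3 of 6 ATPases and 8 of 11 other 19S subunits were lower, and 4 of 5 activators were higher. Of the 31 tested 20S and 19S subunits, 5 were higher: 1 alpha subunit, 1 beta subunit (Psmb5), 2 ATPases and 1 other 19S subunit. With the further demand of a fold over 2, 2 genes were higher (background 17.1%) and 3 lower (background 15.1%). Both counts were smaller shares of the 40 than the background. Marker lists differed here too. The 4 markers of fibroblasts and pericytes summed to 182.8 to 188.9 CPM in BEC normal and 22.4 to 23.3 CPM in HEC normal. The 4 cycling-cell markers summed to 830.6 to 1053 CPM in BEC normal and 1112 to 1168 CPM in HEC normal. Their part in the differences between HECs and BECs was not tested.

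The 3 genes lower by more than 2-fold were Psmb2, Psmd1 and Psma2. Psmb2 (ENSMUSG00000028837, chr4:126677630-126709714, plus strand), a structural beta subunit, had normalised counts of 10732, 12065 and 11383 in BEC normal and 4200, 4446 and 4323 in HEC normal, a 2.64-fold difference (log2 fold change -1.40 ± 0.06 (SE), adjusted p = 4.0e-114). Every HEC library lay below every BEC library, with a gap wider than the spread within either group. Psmd1 (ENSMUSG00000026229, chr1:86064387-86139151, plus strand), the large scaffold of the 19S base, read 25942, 21870 and 23975 in BEC normal and 9355, 9336 and 10018 in HEC normal (log2 fold change -1.32 ± 0.07 (SE), adjusted p = 1.9e-80). Its exons overlap Gm21972 on the same strand and Htr2b on the opposite one, the larger overlap being 301 bases, which leaves some of its reads uncertain. Psma2 (ENSMUSG00000015671, chr13:14613240-14674236, plus strand), an alpha-ring subunit, went from 16545, 18490 and 18017 to 6957, 7103 and 7399 (log2 fold change -1.31 ± 0.09 (SE), adjusted p = 5.2e-51). Again the groups did not overlap.

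Psme1 (ENSMUSG00000022216, chr14:55578123-55581529, plus strand), which encodes the PA28 alpha subunit, had normalised counts of 4855, 6479 and 5246 in BEC normal and 13542, 12703 and 13369 in HEC normal (log2 fold change 1.26 ± 0.10 (SE), adjusted p = 3.0e-37). The HEC values were all above the highest BEC value, and the fitted means of the groups differed by 2.39-fold. Its partner Psme2 (ENSMUSG00000079197, chr14:55587441-55591113, minus strand), 5.91 kb away on chromosome 14, encodes PA28 beta and rose from 4223, 5798 and 4970 to 8015, 8471 and 8053 (log2 fold change 0.71 ± 0.13 (SE), adjusted p = 2.6e-07). Psme2b, whose transcript is nearly identical to that of Psme2, was higher by 2.4-fold (log2 fold change 1.27 ± 0.15 (SE), adjusted p = 4.3e-17), but reads of the 2 genes may have been exchanged, and the values of both are uncertain to that extent. Exons of Psme2b also overlap 9930111J21Rik1 on the same strand, by 41 bases. The other PA28 family member, Psme3 (ENSMUSG00000078652, chr11:101316213-101323537, plus strand), went the opposite way, with 15511, 16848 and 15852 in BEC normal and 8450, 8528 and 9282 in HEC normal (log2 fold change -0.88 ± 0.06 (SE), adjusted p = 4.9e-53). Psme4 (ENSMUSG00000040850, chr11:30771726-30880361, plus strand), the PA200 gene, read 6001, 4255 and 4863 and 7625, 7143 and 7689 (log2 fold change 0.57 ± 0.13 (SE), adjusted p = 1.9e-05). HEC values of all activators stood outside the BEC range, above it for Psme1, Psme2 and Psme4 and below it for Psme3, but in this comparison the groups did not overlap for 66.7% of all genes tested either.

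The catalytic subunits did not move as 1 group. Psmb5, which carries the chymotrypsin-like site, was at 7119, 9240 and 8700 in BEC normal and 13655, 13669 and 13806 in HEC normal (log2 fold change 0.72 ± 0.10 (SE), adjusted p = 1.2e-11). Psmb6, which carries the caspase-like site, was at 14344, 17696 and 15837 and 12056, 13454 and 12493 (log2 fold change -0.33 ± 0.09 (SE), adjusted p = 2.2e-04), and Psmb7, with the trypsin-like site, at 17773, 21584 and 19640 and 15559, 17182 and 15889 (log2 fold change -0.28 ± 0.09 (SE), adjusted p = 0.0039). HEC values were thus above the BEC range for Psmb5 and below it for the other two. For the immunoproteasome subunits that can replace them, Psmb8 was lower in HECs (log2 fold change -2.56 ± 0.16 (SE), adjusted p = 8.2e-60), Psmb10 was higher (log2 fold change 0.55 ± 0.16 (SE), adjusted p = 1.0e-03), and Psmb9 did not pass the test (log2 fold change -0.42 ± 0.22 (SE), adjusted p = 0.092). The PA28 genes and the inducible catalytic subunits, which interferon-gamma is known to raise together, were therefore not all higher in the same cells. Some reads of Psmb5 are uncertain, since it has a near-identical copy, Gm3375, and its exons overlap Mir686 on the same strand. Exons of Psmb7 overlap Nek6 on the opposite strand. Near copies also exist of Psmd2, Psma5, Psma3 and Psmb3, which are named below. Exons of Psmd9, also named below, overlap Gm26745 on the opposite strand by 1849 bases. In all, 9 members had a near copy and 12 an exon overlap.

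**Figure D1:**
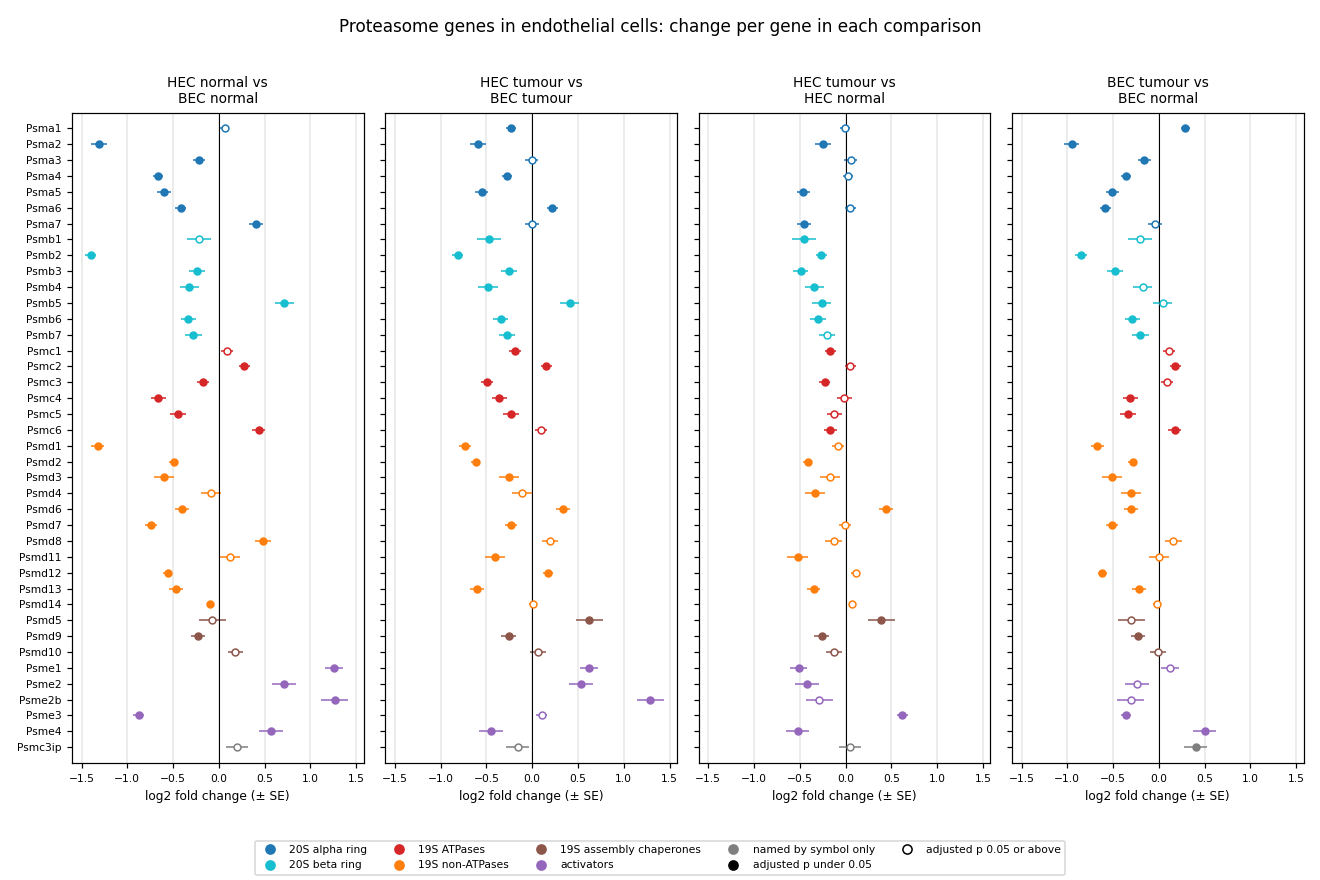
Log2 fold change (horizontal axis, ± SE of the DESeq2 fit, 3 libraries a group) of the 40 tested proteasome genes (rows, grouped and coloured by role) in 4 comparisons of endothelial cells; filled points have an adjusted p under 0.05. Most points of the 20S and 19S rows lie left of 0 in each panel, while Psme1, Psme2, Psme2b and Psmb5 lie right of 0 in both comparisons of HECs with BECs.

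**Figure D2:**
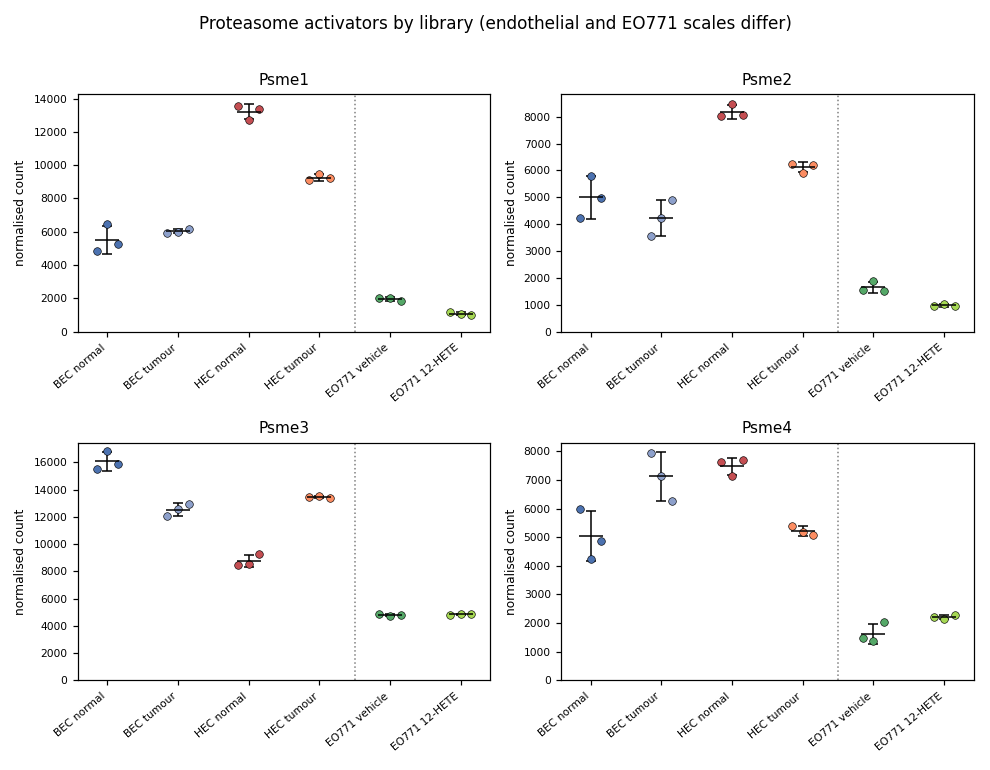
Normalised counts (vertical axis, linear) of the activator genes Psme1, Psme2, Psme3 and Psme4 in the 18 libraries; points are libraries, bars the mean and SD of 3, and the dotted line separates the endothelial from the EO771 table, whose scales differ. Among the endothelial groups Psme1 and Psme2 are highest in HEC normal, where Psme3 is lowest, and Psme1 and Psme2 are lower with 12-HETE in EO771 cells.

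The same comparison was made between HECs of LNs of tumour-bearing mice and BECs of primary tumours. It gave 22 lower genes (background 28.4%) and 9 higher ones (background 25.9%) of 40, with a median log2 fold change of -0.23 beside 0.0060 over all genes. Past a fold of 2 there was 1 higher gene, Psme2b (log2 fold change 1.29 ± 0.15 (SE), adjusted p = 2.4e-17), where 11.2% of all genes were, and 0 lower, where 10.7% of all genes were. The limits on the reads of Psme2b stated above hold here too. At an unadjusted p under 0.05, 32 of the 40 genes differed, and edgeR likewise placed 1 gene past the fold of 2. Of the beta ring, 6 of 7 subunits were lower and Psmb5 was higher again, with 8047, 8250 and 9532 in BEC tumour and 11916, 11448 and 10981 in HEC tumour (log2 fold change 0.41 ± 0.10 (SE), adjusted p = 1.8e-04). Psmb6 (log2 fold change -0.35 ± 0.09 (SE), adjusted p = 1.7e-04) and Psmb7 (log2 fold change -0.28 ± 0.09 (SE), adjusted p = 0.0051) were lower.

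The lowest genes by their test statistic were Psmb2, Psmd2 and Psmd1. Psmb2 read 6149, 6342 and 6462 in BEC tumour and 3553, 3763 and 3471 in HEC tumour (log2 fold change -0.81 ± 0.06 (SE), adjusted p = 4.4e-38). Psmd2, which encodes the other large scaffold of the 19S base, read 35522, 34388 and 37011 and 23336, 23716 and 22713 (log2 fold change -0.62 ± 0.05 (SE), adjusted p = 4.9e-34), and Psmd1 15312, 15296 and 14464 and 9180, 9034 and 8907 (log2 fold change -0.73 ± 0.07 (SE), adjusted p = 4.8e-25). In each of the 3 genes all HEC libraries were below all BEC libraries (62.7% of all genes had groups that did not overlap here). Psme1 was higher in HECs, at 5936, 5984 and 6169 in BEC tumour and 9084, 9490 and 9199 in HEC tumour (log2 fold change 0.62 ± 0.10 (SE), adjusted p = 1.1e-09). Psme2 was at 3562, 4224 and 4916 and 6227, 5903 and 6216 (log2 fold change 0.53 ± 0.13 (SE), adjusted p = 2.0e-04), and Psmd6, a 19S lid subunit, at 6364, 6092 and 6743 and 7853, 8471 and 7889 (log2 fold change 0.33 ± 0.08 (SE), adjusted p = 4.9e-05). None of these groups overlapped. Psme3 did not pass the test here (log2 fold change 0.10 ± 0.06 (SE), adjusted p = 0.11), except with library totals as size factors and with a mean of at least 100, and Psme4 was lower in HECs, at 7958, 7150 and 6263 and 5402, 5168 and 5077 (log2 fold change -0.45 ± 0.13 (SE), adjusted p = 0.0011). The sign of Psme4 was therefore opposite to that in the normal tissues.

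HECs of LNs of tumour-bearing mice were next set against HECs of normal LNs. The genes tended to be lower with tumour, by small folds: 20 of 40 were lower (background 18.5%) and 3 higher (background 16.9%), with a median log2 fold change of -0.19 beside 0.019 over all genes. DESeq2 and edgeR each placed 0 genes past a fold of 2, where 4.58% of all genes were higher and 3.21% lower by that rule, and 25 members had an unadjusted p under 0.05. By role, 6 of 7 beta subunits, 3 of 7 alpha subunits, 3 of 6 ATPases, 4 of 11 other 19S subunits and 3 of 5 activators were lower. In the same comparison all 3 immunoproteasome subunits were lower (Psmb8 log2 fold change -0.79 ± 0.16, Psmb9 -0.91 ± 0.23, Psmb10 -0.70 ± 0.16, ± SE). Marker lists moved here too: the 4 cycling-cell markers summed to 1112 to 1168 CPM in HEC normal and 929.4 to 953.1 CPM in HEC tumour, and the 4 markers of fibroblasts and pericytes to 22.4 to 23.3 CPM and 10.6 to 11.6 CPM. Their part in the lower genes was not tested.

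The clearest falls were in Psmd2, Psma5 and Psma7. Psmd2 went from 30344, 31572 and 30826 in HEC normal to 23336, 23716 and 22713 in HEC tumour (log2 fold change -0.41 ± 0.05 (SE), adjusted p = 3.6e-15). Psma5, an alpha-ring subunit, went from 7344, 7364 and 7335 to 5323, 5244 and 5448 (log2 fold change -0.46 ± 0.07 (SE), adjusted p = 3.3e-09), and Psma7, another subunit of that ring, from 16153, 16854 and 16896 to 11736, 12799 and 11871 (log2 fold change -0.45 ± 0.08 (SE), adjusted p = 2.5e-08). The HEC tumour values lay below the HEC normal values in every library, where 48.8% of all genes had no overlap of the groups. The 2 PA28 genes fell too, Psme1 with log2 fold change -0.51 ± 0.10 (SE), adjusted p = 1.2e-06 and Psme2 with log2 fold change -0.42 ± 0.13 (SE), adjusted p = 0.0062, on the counts given above for both groups. Psme4 fell by a similar fold (log2 fold change -0.52 ± 0.13 (SE), adjusted p = 2.4e-04). Psmb5 (log2 fold change -0.26 ± 0.10 (SE), adjusted p = 0.033) and Psmb6 (log2 fold change -0.30 ± 0.09 (SE), adjusted p = 0.0019) were lower and Psmb7 did not pass (log2 fold change -0.20 ± 0.09 (SE), adjusted p = 0.07), though it did with TMM factors, with the replicate block and in a fit of the compared groups alone. The call of Psmb5 was lost with library totals as size factors and when any 1 of the 6 HEC libraries was left out, with adjusted p up to 0.13.

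The 3 genes higher with tumour in HECs were Psme3, Psmd6 and Psmd5. Psme3 rose from 8450, 8528 and 9282 to 13485, 13524 and 13385 (log2 fold change 0.62 ± 0.06 (SE), adjusted p = 3.2e-26). Psmd6 rose from 5412, 6396 and 6036 to 7853, 8471 and 7889 (log2 fold change 0.44 ± 0.08 (SE), adjusted p = 1.4e-07). Psmd5, an assembly chaperone, read 4866, 4922 and 7331 in HEC normal and 7834, 7590 and 7023 in HEC tumour (log2 fold change 0.39 ± 0.15 (SE), adjusted p = 0.027). Here the groups overlapped, because HEC normal replicate 3 stood among the HEC tumour values, and the call was lost under 6 of 14 alternatives (edgeR, a fit of the compared groups alone, and without HEC normal replicate 1 or 2 or HEC tumour replicate 1 or 2), with log2 fold changes from 0.29 to 0.61 over all 14.

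BECs of primary tumours were compared with BECs of the normal fat pad in the same way. Here 21 of 40 genes were lower in tumours (background 27.2%) and 5 higher (background 26.5%), with a median log2 fold change of -0.23 beside 0.0083 over all genes. As in HECs, DESeq2 and edgeR placed 0 genes past a fold of 2 (12.4% of all genes were higher and 10.8% lower by that rule), while 28 had an unadjusted p under 0.05. The lower genes comprised 5 of 7 alpha subunits, 4 of 7 beta subunits, 2 of 6 ATPases and 8 of 11 other 19S subunits. The leukocyte markers given above differed between these 2 groups. So did the 4 markers of fibroblasts and pericytes, which summed to 182.8 to 188.9 CPM in BEC normal and 32.0 to 55.3 CPM in BEC tumour. The 3 lymphatic endothelial markers summed to 257.2 to 278.6 CPM in BEC normal and 71.9 to 83.1 CPM in BEC tumour. The 4 markers of epithelium and tumour cells summed to 3.41 to 6.84 CPM in BEC normal. In BEC tumour they were uneven, at 13.2 to 78.3 CPM. The part of these markers in the results for BEC tumour was not tested.

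Psmb2, Psmd12 and Psma2 had the strongest falls. Psmb2 went from 10732, 12065 and 11383 in BEC normal to 6149, 6342 and 6462 in BEC tumour (log2 fold change -0.85 ± 0.06 (SE), adjusted p = 2.5e-43). Psmd12, a 19S lid subunit, went from 12880, 13809 and 13026 to 8279, 8634 and 8931 (log2 fold change -0.62 ± 0.05 (SE), adjusted p = 3.3e-34). Psma2 went from the BEC normal values above to 8328, 8900 and 10177 (log2 fold change -0.95 ± 0.09 (SE), adjusted p = 1.5e-27). Its fall passed a fold of 2 when BEC normal replicate 1 or BEC tumour replicate 3 was left out. Psmb6 fell as well (log2 fold change -0.29 ± 0.09 (SE), adjusted p = 0.0018), Psmb5 did not pass (log2 fold change 0.04 ± 0.10 (SE), adjusted p = 0.75), and Psmb7, called here (log2 fold change -0.20 ± 0.09 (SE), adjusted p = 0.048), lost its call under 11 of 14 alternative settings with an adjusted p of up to 0.24.

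Psma1, Psme4 and Psmc3ip led the higher genes of BEC tumour. Psma1, an alpha-ring subunit, read 16709, 17972 and 17591 in BEC normal and 20690, 20643 and 22508 in BEC tumour (log2 fold change 0.29 ± 0.05 (SE), adjusted p = 5.6e-08). Psme4 went from 6001, 4255 and 4863 to 7958, 7150 and 6263 (log2 fold change 0.50 ± 0.13 (SE), adjusted p = 2.6e-04). Psmc3ip, which is no proteasome subunit, read 1766, 1602 and 1596 and 2338, 1871 and 2350 (log2 fold change 0.40 ± 0.12 (SE), adjusted p = 0.0025), and its exons overlap those of Mlx on the opposite strand. The BEC tumour values of all 3 genes lay above the BEC normal range (groups without overlap in 59.5% of all genes). Among the PA28 genes neither Psme1 (log2 fold change 0.13 ± 0.10 (SE), adjusted p = 0.28) nor Psme2 (log2 fold change -0.24 ± 0.13 (SE), adjusted p = 0.12) passed the test, and Psme3 was lower (log2 fold change -0.36 ± 0.06 (SE), adjusted p = 1.0e-09). This outcome held under 13 of 14 alternatives for Psme1 and 12 of 14 for Psme2. The exceptions each left out 1 library. Psme1 was called higher without BEC normal replicate 2 (log2 fold change 0.25). Psme2 was called lower without BEC normal replicate 1 or BEC tumour replicate 3 (log2 fold change down to -0.36).

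**Figure D3:**
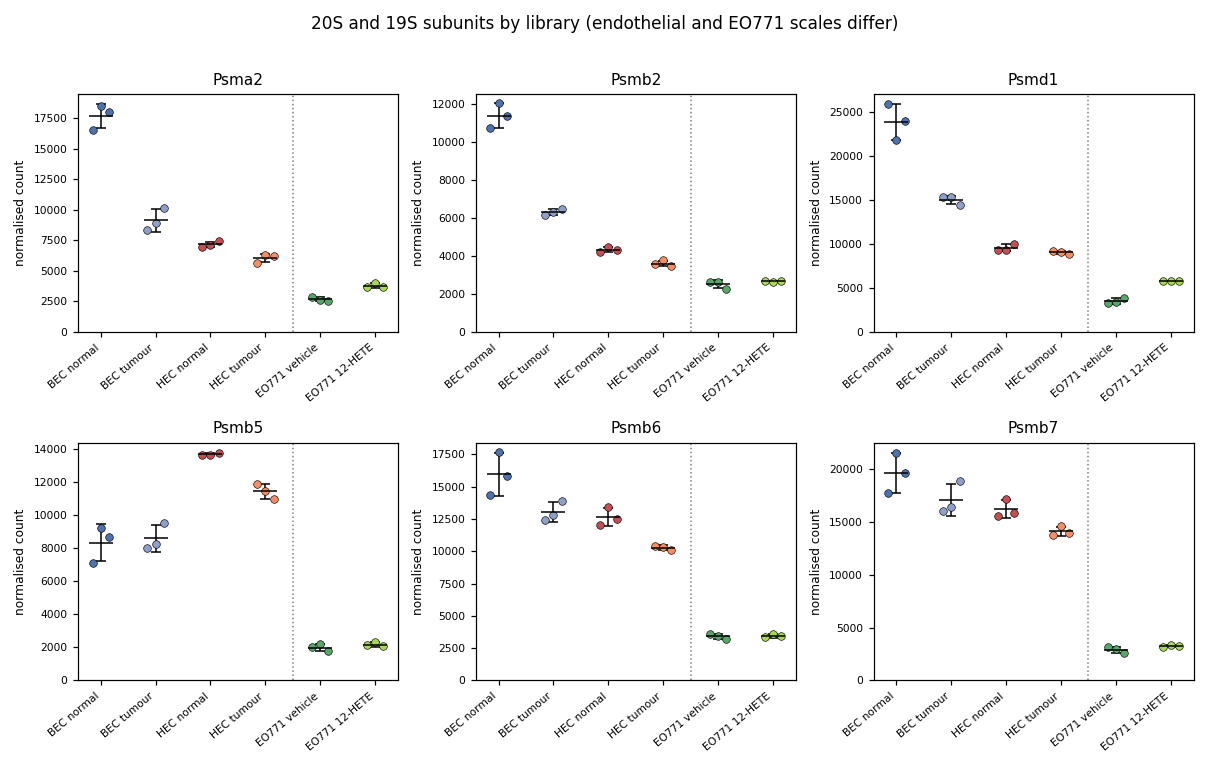
Normalised counts (vertical axis, linear) of 6 core and 19S genes in the 18 libraries; points are libraries, bars the mean and SD of 3, and the dotted line separates tables of different scale. Psma2, Psmb2 and Psmd1 are highest in BEC normal and lower in the other 3 endothelial groups, whereas Psmb5 is higher in HECs than in BECs.

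The 2 comparisons with tumour share no library, so their calls can be set side by side. Of the 40 genes, 9 were lower with tumour in both cell types (Psma2, Psma5, Psmb2, Psmb3, Psmb6, Psmd2, Psmd4, Psmd9 and Psmd13), which is 9 of the 20 lower in HECs and 9 of the 21 lower in BECs. Over all genes tested 6.66% were lower in both, but with 20 and 21 of the 40 lower in the single comparisons, the 9 shared genes do not by themselves show a shared response. Another 4 were called in opposite directions (Psme3 and Psmd6 higher in HECs and lower in BECs, Psme4 and Psmc6 the reverse), as were 11.8% of all genes, and 4 were called in neither, as were 34.1%. Across the 40 genes, the changes in HECs and in BECs had a Pearson r of -0.11 and a Spearman rho of -0.13, as a description over genes of a shared complex, which are not independent.

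The difference between the cell types was tested as an interaction, the change with tumour in HECs minus that in BECs. It was positive for 11 genes (background 22.9%) and negative for 8 (background 23.8%), with a median of -0.02 on the log2 scale, which ran from -0.08 to 0.05 over the alternatives. Both counts were shares of the 40 near the background. Past a fold of 2 were 0 positive genes (background 11.2%) and 1 negative one (background 12.1%). The negative gene was Psme4, which fell with tumour in HECs and rose in BECs (interaction -1.02 ± 0.18 on the log2 scale, adjusted p = 8.6e-08). Psme3 went the other way in both cell types, with a positive interaction of 0.98 ± 0.08 (adjusted p = 3.6e-33). The PA28 gene Psme1 had a negative one of -0.64 ± 0.14 (adjusted p = 1.5e-05), while that of Psme2 did not pass (-0.18 ± 0.19, adjusted p = 0.46). Of the core and 19S genes, Psmd12 (0.73 ± 0.07, adjusted p = 8.5e-24) and the alpha-ring gene Psma6 (0.64 ± 0.08, adjusted p = 4.8e-13) fell in BECs and did not pass in HECs (adjusted p = 0.068 and 0.55). Psma6 read 16214, 18326 and 17966 in BEC normal and 11565, 11314 and 12140 with tumour, and in HECs 13258, 12621 and 13411 without and 13557, 13362 and 13817 with tumour. Psma1 had a negative interaction (-0.29 ± 0.07, adjusted p = 1.7e-04), with HEC values of 17896, 18144 and 18541 without and 18061, 18465 and 17885 with tumour. Its rise was thus seen in BECs, and in HECs the 2 groups overlapped. The interactions of Psmb5 (-0.30 ± 0.14), Psmb6 (-0.01 ± 0.12) and Psmb7 (0.00 ± 0.13) did not pass, with adjusted p = 0.072, 0.95 and 0.99. That of Psmb5 was called by edgeR, with TMM factors and without BEC normal replicate 2, with adjusted p down to 0.014.

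**Figure D4:**
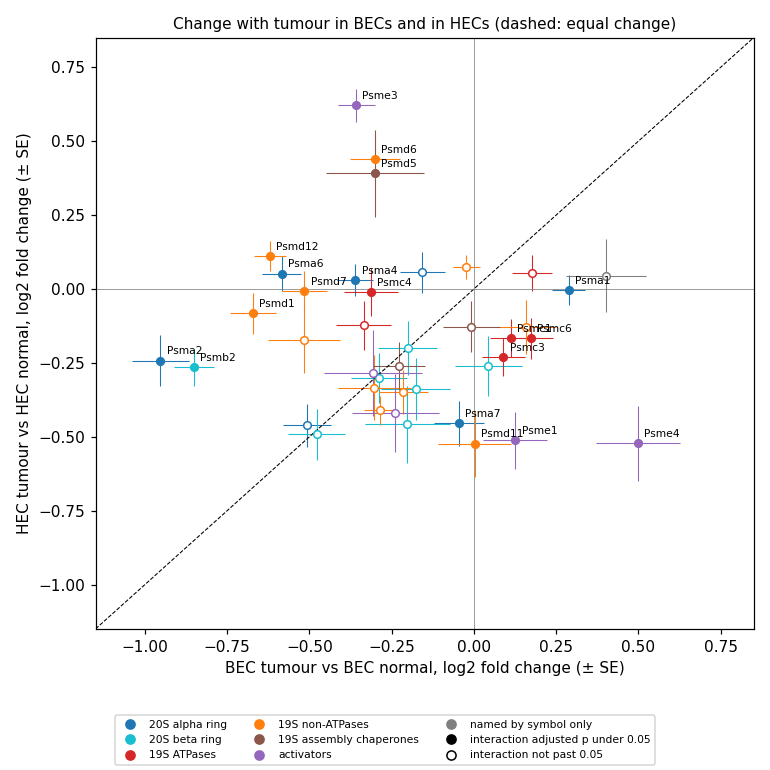
Log2 fold change with tumour of each of the 40 genes in BECs (horizontal axis) and in HECs (vertical axis), ± SE, with the line of equal change dashed and colours by role; named and filled genes had an interaction with an adjusted p under 0.05. Psme3 and Psme4 lie farthest from the line on opposite sides.

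The last comparison asked what 12-HETE changed in EO771 cells. The 2 PA28 genes fell together with the immunoproteasome subunits. Among the 31 tested 20S and 19S genes, 11 were higher and 1 lower, where 22.7% and 24.2% of all genes were. Each changed by less than 2-fold. Of 40 genes tested, 12 were higher with 12-HETE, against 22.7% of all 11602 genes tested, and 4 were lower, against 24.2%. The first count was a share of 30% of the 40, close to the background, and the second a share of 10%, below it. The median log2 fold change was 0.12 beside 0.0012 over all genes, and 0.06 without vehicle replicate 3, with the counts of 12 and 4 as before. Neither DESeq2 nor edgeR placed a member past a fold of 2 (0 by both), where 2.38% of all genes were higher and 7.79% lower by that rule, and 18 members had an unadjusted p under 0.05. The 4 lower genes were Psme1, Psme2, Psme2b and the 19S lid gene Psmd8.

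Psme1 read 2014, 2028 and 1815 in vehicle and 1160, 1080 and 993 with 12-HETE (log2 fold change -0.86 ± 0.11 (SE), adjusted p = 1.9e-14), a 1.81-fold fall. Psme2 read 1562, 1896 and 1523 and 952, 1035 and 950 (log2 fold change -0.76 ± 0.12 (SE), adjusted p = 5.2e-09). For both genes all libraries with 12-HETE were below all vehicle libraries, in a comparison in which 60.7% of all genes had groups that did not overlap. Psme2b, with the limit on its reads stated above, read 911, 972 and 870 and 589, 578 and 534 (log2 fold change -0.69 ± 0.11 (SE), adjusted p = 1.5e-09). The fall was larger in the immunoproteasome subunits, with Psmb8 at 423, 461 and 404 in vehicle and 28, 28 and 13 with 12-HETE (log2 fold change -4.24 ± 0.25), Psmb9 at -4.60 ± 0.24 and Psmb10 at -1.43 ± 0.19. Psme3, of the same family, read 4860, 4749 and 4780 and 4798, 4884 and 4842 and did not pass (log2 fold change 0.01 ± 0.07 (SE), adjusted p = 0.89). Its 6 values lay within a narrow band in which the groups overlapped.

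Psmd8 (ENSMUSG00000030591, chr7:29174188-29180701, minus strand) read 8503, 7517 and 6839 in vehicle and 4235, 4324 and 4188 with 12-HETE (log2 fold change -0.84 ± 0.11 (SE), adjusted p = 3.4e-14). It was the only 19S gene called lower here, and its fold was close to that of Psme1. In endothelial cells it was higher in normal HECs than in normal BECs (log2 fold change 0.48 ± 0.09 (SE), adjusted p = 3.8e-07), as Psme1 was, and it did not pass in the comparisons with tumour (adjusted p = 0.29 in HECs and 0.13 in BECs).

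Among the higher genes, Psmd1, Psmc6 and Psmd6 stood first. Psmd1 read 3259, 3389 and 3852 in vehicle and 5792, 5769 and 5771 with 12-HETE (log2 fold change 0.72 ± 0.10 (SE), adjusted p = 5.8e-13). Psmc6 (ENSMUSG00000021832, chr14:45329788-45349705, plus strand), an ATPase of the 19S base, read 1299, 1142 and 1560 and 2240, 2423 and 2510 (log2 fold change 0.84 ± 0.14 (SE), adjusted p = 5.3e-09), and Psmd6 1520, 1724 and 1783 and 2462, 2481 and 2476 (log2 fold change 0.56 ± 0.10 (SE), adjusted p = 7.0e-08). The vehicle libraries spread more widely than those with 12-HETE, and the groups did not overlap for any of the 3 genes. By role, 4 of 7 alpha subunits (Psma1, Psma2, Psma3 and Psma5), 2 of 6 ATPases and 5 of 11 other 19S subunits rose (background 22.7%). DESeq2 and edgeR called 0 of 7 beta subunits, 1 of which had an unadjusted p under 0.05. The catalytic subunits Psmb5 (log2 fold change 0.13 ± 0.12 (SE), adjusted p = 0.35), Psmb6 (log2 fold change 0.02 ± 0.09 (SE), adjusted p = 0.88) and Psmb7 (log2 fold change 0.17 ± 0.11 (SE), adjusted p = 0.19) thus did not pass. Psme4 was higher, at 1494, 1381 and 2032 in vehicle and 2224, 2154 and 2290 with 12-HETE (log2 fold change 0.44 ± 0.15 (SE), adjusted p = 0.011), and lost its call when vehicle replicate 1 or replicate 1 or 3 with 12-HETE was left out. With the replicate number as a block, Psma3 (adjusted p = 0.099) and Psmd2 (adjusted p = 0.073) lost their calls and 10 higher and 4 lower genes were left. The 4 cycling-cell markers also differed, summing to 952.4 to 1467 CPM in vehicle and 1927 to 2020 CPM with 12-HETE, and their part in the higher genes was not tested.

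**Figure D5:**
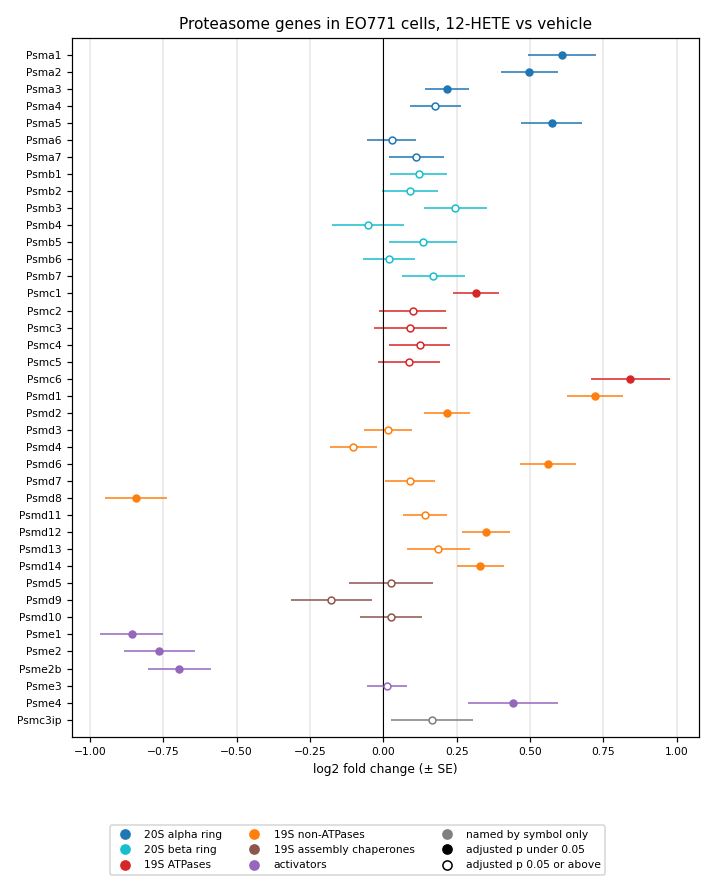
Log2 fold change (horizontal axis, ± SE of the DESeq2 fit, 3 libraries a group) of the 40 tested genes in EO771 cells with 12-HETE against vehicle, grouped and coloured by role; filled points have an adjusted p under 0.05. Psme1, Psme2, Psme2b and Psmd8 lie apart on the left, and the filled points on the right are alpha-ring and 19S genes and Psme4.

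Promoter sequences are shown for the genes at both ends of the response to 12-HETE, the falling Psme1, Psme2 and Psmd8 and the rising Psmc6. They are RefSeq promoters of the GRCm38.p6 assembly, each from 250 bases before to 50 after the annotated start, read 5′ to 3′ on the strand of the gene, and the table held one for 35 of the 42 genes. Capitals mark matches to the interferon-stimulated response element (GAAANNGAAA) in Psme1 and to the antioxidant response element (TGACNNNGC) in Psmc6, each searched on both strands.
Psme1 promoter, chr14:55578244-55578543, plus strand: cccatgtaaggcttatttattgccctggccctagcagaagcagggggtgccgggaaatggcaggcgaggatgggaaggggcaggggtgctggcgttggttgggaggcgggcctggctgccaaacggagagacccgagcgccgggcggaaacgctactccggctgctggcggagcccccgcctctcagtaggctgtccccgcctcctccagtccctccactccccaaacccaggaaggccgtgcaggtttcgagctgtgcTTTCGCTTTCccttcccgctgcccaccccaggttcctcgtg
Psme2 promoter, chr14:55591052-55591351, minus strand: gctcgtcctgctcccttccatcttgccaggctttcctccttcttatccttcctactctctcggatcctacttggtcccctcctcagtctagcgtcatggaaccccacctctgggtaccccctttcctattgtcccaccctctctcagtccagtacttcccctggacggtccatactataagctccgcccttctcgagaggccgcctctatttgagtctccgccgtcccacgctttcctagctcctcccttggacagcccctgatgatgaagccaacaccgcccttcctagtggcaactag
Psmd8 promoter, chr7:29180624-29180923, minus strand: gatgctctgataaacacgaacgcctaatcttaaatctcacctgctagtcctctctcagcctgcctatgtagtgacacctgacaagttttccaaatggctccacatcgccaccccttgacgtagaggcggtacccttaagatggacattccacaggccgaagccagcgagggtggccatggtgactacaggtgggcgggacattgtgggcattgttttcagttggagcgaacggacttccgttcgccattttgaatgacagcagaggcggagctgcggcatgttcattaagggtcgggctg
Psmc6 promoter, chr14:45329574-45329873, plus strand: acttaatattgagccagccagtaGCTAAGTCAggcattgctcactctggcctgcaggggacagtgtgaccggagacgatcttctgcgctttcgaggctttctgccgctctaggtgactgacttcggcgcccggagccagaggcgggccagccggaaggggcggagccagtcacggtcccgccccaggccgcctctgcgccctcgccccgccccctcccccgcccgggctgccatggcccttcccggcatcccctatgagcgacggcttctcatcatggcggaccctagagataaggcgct

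The match in Psme1 began at base 10 after the start, on the opposite strand of the gene. Neither the window of Psme2, for which the first of 2 listed starts is shown, nor that of Psmd8 held a match to any motif searched. The interferon-stimulated response element was found in 4 of the 38 promoters of members (Psmb3, Psmd4, Psmd9 and Psme1) and in 3.44% of all 32851 promoters of this length. The gamma-activated site (TTCNNNGAA) was found in 1 of 38 (Psmd2) and in 8.30% of all promoters, and the antioxidant response element in 6 of 38 (Psmb5, Psmb6, Psmc6, Psmd9, Psmd12 and Psme4) and in 12.4%. Of the 4 genes with the interferon motif, Psme1 was called lower with 12-HETE and Psmb3, Psmd4 and Psmd9 were not called.

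The wider pathway was described from lists of assembly factors and of the ubiquitin and NRF1 route. Of 14 tested genes for assembly and accessory factors, 7 were lower and 4 higher in normal HECs than in normal BECs (background 31.9% lower and 31.4% higher), and 2 lower and 7 higher in HEC tumour than in BEC tumour (background 28.4% lower and 25.9% higher). With tumour, 3 fell and 2 rose in HECs (background 18.5% lower and 16.9% higher), and 9 fell and 2 rose in BECs (background 27.2% lower and 26.5% higher). In EO771 cells 6 rose and 2 fell with 12-HETE (background 24.2% lower and 22.7% higher). Akirin2, which brings proteasomes into the nucleus, was higher in normal HECs than in normal BECs (log2 fold change 1.62 ± 0.07 (SE), adjusted p = 8.8e-126) and in BEC tumour than in BEC normal (log2 fold change 0.95 ± 0.07 (SE), adjusted p = 3.0e-43), and lower with 12-HETE (log2 fold change -0.56 ± 0.11 (SE), adjusted p = 7.0e-07). Pomp, the chaperone of core maturation, was higher in HECs in both comparisons (0.80 ± 0.07 and 0.68 ± 0.07 on the log2 scale) and with 12-HETE (log2 fold change 0.50 ± 0.09 (SE), adjusted p = 1.1e-06). Usp14, a ubiquitin protease bound to the 19S particle, was lower in HEC normal (log2 fold change -0.99 ± 0.08 (SE), adjusted p = 3.1e-31) and in BEC tumour (log2 fold change -0.94 ± 0.08 (SE), adjusted p = 2.2e-28), each against BEC normal. So the factors that serve the core moved with it in some cases and against it in others.

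Of the 10 genes of the ubiquitin and NRF1 route, 5 were lower and 3 higher in normal HECs than in normal BECs (background 31.9% lower and 31.4% higher). In HEC tumour against BEC tumour, 4 were lower and 1 higher (background 28.4% lower and 25.9% higher). With tumour, 6 fell and 2 rose in HECs (background 18.5% lower and 16.9% higher), and 4 fell and 2 rose in BECs (background 27.2% lower and 26.5% higher). In EO771 cells 2 fell and 2 rose with 12-HETE (background 24.2% lower and 22.7% higher). The 3 higher genes in normal HECs, the 2 that rose with tumour in either cell type, and the 2 in each direction with 12-HETE were near the level of all genes. Nfe2l1, the gene of NRF1, could not be placed in endothelial cells, since its normalised counts ran from 6871 to 28487 within BEC normal and from 2273 to 13702 within HEC tumour, and it passed in no endothelial comparison. In EO771 cells it was lower with 12-HETE (log2 fold change -0.52 ± 0.09 (SE), adjusted p = 1.3e-07). Vcp, the segregase that hands ubiquitinated proteins to the proteasome, was higher there (log2 fold change 0.54 ± 0.09 (SE), adjusted p = 5.9e-08) and lower in HECs than in BECs of normal tissue (log2 fold change -0.45 ± 0.06 (SE), adjusted p = 6.4e-13).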

How the data were processed

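RNA was sequenced from 12 endothelial and 6 EO771 libraries. Following the methods, the authors aligned reads to GRCm38 (Ensembl 91) with STAR 2.6.0c and counted fragments with featureCounts 1.6.2. The deposited EO771 values are raw counts per gene. The deposited endothelial values were handled as estimated counts made by the authors. Their small values, though whole, tended to cluster at multiples of 3.69 to 3.81, so that 1 unit may not be 1 fragment. The strength of this periodicity was 0.050 to 0.092 in endothelial libraries and 0.044 to 0.058 in EO771 libraries. These ranges overlap, with BEC normal replicate 1 lowest of the endothelial libraries, so the step is uncertain for single libraries. The methods and the labels name different library kits, and strand use in counting is not stated. Genes with a mean of at least 10 were tested with DESeq2 1.42.0 in R 4.3.3 (two-sided Wald test, Benjamini-Hochberg over all genes tested), 1 fit per table, edgeR 4.0.16 being an alternative. A call was an adjusted p under 0.05, alone or with a fold over 2. Normalised counts are values divided by DESeq2 size factors. Of the identifiers, 260 endothelial ones and 230 EO771 symbols had no match in the annotation. The test was checked on simulated data. In EO771 cells, libraries of equal replicate number deviated together (correlations 0.11, 0.17 and 0.33), a pairing taken from the data and not stated in the labels. The members and lists were chosen with earlier results of these data known. Named were Psme1, Psme2, Psme3, Psme4, Psmb5, Psmb6, Psmb7, Psma8 and Psmb11 and, per comparison, up to 3 members with the strongest test statistic in each direction among those called, with those past the fold first; other members were named where a count turned on them, after their values were seen. Alternatives covered size factors, filters, pairing, the step and leaving out each library.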

Additional observations from a re-analysis of the deposited data

Results flagged for a closer look

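The interaction test of cell type and tumour called 11 genes with a more positive change in HECs than in BECs and 8 with a more negative one, of 40 tested, at an adjusted p under 0.05 (DESeq2). Of all genes, 22.9% and 23.8% were called in these directions, so both counts lie near the background. Psme4 stood out among them with an interaction of -1.02 ± 0.18 (log2, SE), its change being -0.52 in HECs and 0.50 in BECs. With the library of BEC normal replicate 2, BEC normal replicate 3 or BEC tumour replicate 1 left out, the interaction of Psme4 no longer passed a fold of 2 but kept its adjusted p under 0.05. The groups held 3 libraries each, which is too few for a test of single outlying libraries.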

How the results depend on the processing

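No gene called in any of the 6 comparisons changed its sign under any alternative tried. Of 69 results for named genes, 60 kept their call under all alternatives run for them. The number of higher genes rose from 3 to 5 for tumour in HECs with library totals as size factors and with a mean of at least 100, and from 5 to 8 for tumour in BECs with TMM factors. For the interaction, TMM factors gave 13 negative genes in place of 8, and library totals as size factors gave 1 positive gene (Psme3) and 0 negative ones past a fold of 2. Leaving out 1 library at a time gave between 0 and 1 genes lower by more than 2-fold for tumour in BECs (Psma2, without BEC normal replicate 1 or BEC tumour replicate 3), between 0 and 1 positive genes past that fold in the interaction (Psme3, without BEC normal replicate 1, BEC tumour replicate 3 or HEC normal replicate 3), and between 0 and 1 negative ones. The cause was not tested. Over all 18 pairs of endothelial libraries of equal replicate number, correlations lay between -0.028 and 0.13, and these were not taken as pairs. The replicate block there gave 9 higher and 22 lower genes in HEC normal against BEC normal and 5 higher and 20 lower genes for tumour in BECs. In EO771 cells the block gave 10 higher and 4 lower genes in place of 12 and 4. Depth limits only Psma8 and Psmb11, whose values near 0 do not show that they are absent.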
